A study of Oryctolagus cuniculus with 8 samples.

Results

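The miR-191 and miR-425 cluster gives 4 mature miRNAs, ocu-miR-191-5p, ocu-miR-191-3p, ocu-miR-425-5p and ocu-miR-425-3p, one from each arm of its pair of hairpins. They were taken by name from the table of 579 mature rabbit miRNAs, with no threshold on their values. All 4 had reads, as did 354 of the 579 names, and 3 of the 4 were among the 178 that passed the filter on low counts. Each stood on a single row, and no other name shared its profile over the libraries. The prefix ocu, for the rabbit, is left out of the names from here on.

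Small RNA was measured in extracellular vesicles, the membrane particles that cells shed into fluids, from the uterine fluid (3 libraries) and the oviductal fluid (5 libraries) of WT California x New Zealand white does. All 21 does, sexually mature and multiparous, were synchronized with the gonadotropin eCG (25 IU). After 48 h ovulation was induced by a synthetic GnRH analogue (20 µg), and at least 14 to 15 h passed before the tracts were flushed. Each uterine library pooled 5 animals and each oviductal library 3. One uterine library is titled 12 while its column bears the number 1. Whether it joins replicates is not said in the labels, and it is counted here as 1 library. The pools hold 30 places for 21 does, so some does must be in more than 1 pool. The labels do not say which doe went into which pool. The tests treat the pools as independent, so p-values measure the spread between pools of which some share animals. No uterine or oviductal group without hormone treatment was compared here, and vesicles were flushed from whole organs, so the cells that shed them are not known from the labels.

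MicroRNAs are cut from hairpin precursors. Each hairpin can yield a mature strand from its 5′ side (5p) and one from its 3′ side (3p), and usually one of them is loaded into an Argonaute protein while the other is degraded. The loaded strand recognises mRNAs mainly through its seed, the bases near its 5′ end. In mammals miR-191 and miR-425 are made from 1 primary transcript within the gene DALRD3. In human breast cancer cells the cluster is known to be induced by oestrogen. The 5p strand of miR-191 is found in most tissues and in blood cells, and it is often used as a reference for measuring miRNAs in body fluids. In human, miR-425-5p is known to bind the mRNA of NPPA, which encodes atrial natriuretic peptide. In the RefSeq annotation of the rabbit assembly mOryCun1.1, another build than that of the counts, MIR191 and MIR425 are next to each other. MIR425 lies within DALRD3, and MIR191 overlaps one end of it.

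Uterine libraries held 232546 to 479865 miRNA reads each and oviductal libraries 42684 to 569087. Oviductal replicates 2 and 3 were the shallowest. In these, 3 reads corresponded to 63.0 and 70.3 CPM (reads per 1000000 miRNA reads of the library), against 5.27 to 12.9 CPM in the other libraries. Among markers, the epithelial list (4 of 7 names in the table, all 4 with reads) held 0.722% to 3.01% of uterine and 5.41% to 6.18% of oviductal reads. The muscle list (6 of 7 names with reads) held 0.560% to 4.69% of uterine and 0.381% to 0.471% of oviductal reads. As sums, both lists separated the groups. In the muscle list miR-143-3p supplied most reads, at 0.473% to 4.43% of uterine and 0.340% to 0.437% of oviductal reads. The groups were also separated by miR-1-3p, while miR-143-5p, both miR-145 strands and miR-133a-3p overlapped. Among epithelial names miR-141-3p overlapped, at 0.0413% to 0.138% and 0.0351% to 0.167%, while miR-200c-3p, miR-205-5p and miR-375-3p separated the groups. As sums, the other lists overlapped between the groups. Among the names of these lists only miR-146a-5p, of the leukocyte and platelet list, separated the groups. It held 0.00875% to 0.0426% of uterine and 0.00157% to 0.00703% of oviductal reads. The multiciliated list (6 of 7 names with reads) held 0.495% to 3.38% of uterine and 2.77% to 6.12% of oviductal reads. The erythrocyte list (4 of 4) held 0.123% to 0.768% and 0.0922% to 0.288%. The leukocyte and platelet list (5 of 6) held 0.0786% to 0.349% of uterine and 0.100% to 0.235% of oviductal reads, and the liver miRNA miR-122-5p 0.0299% to 0.306% and 0.00615% to 0.0588%. The part of these cell types in the values below was not tested.

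The 4 members together made up 0.329% ± 0.180 of uterine reads (SD, n = 3) and 0.677% ± 0.172 of oviductal reads (SD, n = 5). By library the share was 0.159%, 0.313% and 0.517% in uterine replicates 12, 3 and 4, against 0.834%, 0.517%, 0.630%, 0.521% and 0.882% in oviductal replicates 1 to 5. Uterine replicates 12 and 3 were thus under every oviductal library, while uterine replicate 4 stood level with oviductal replicate 2, the lowest of its group. The groups differed by -0.347 percentage points (p = 0.0714, exact two-sided permutation over the 8 libraries), and the smallest p possible here is 0.0357. In a pool of vesicles, fewer vesicles that carry a miRNA and fewer copies in each cannot be told apart. The share also depends on the other miRNAs of a library. The most abundant of them, miR-148a-3p, took 47.6%, 54.4% and 29.2% of reads in uterine replicates 12, 3 and 4 and 27.1% to 37.0% in oviductal libraries. Without its reads in the total, an alternative chosen after the data were seen, the difference was -0.412 percentage points with the same p of 0.0714. Leaving out single libraries gave larger and smaller differences. Each of the following alternatives gave a smaller difference. From the authors' RPM, scaled to the column sum of all rows, it was -0.296 percentage points (exact permutation p = 0.107). The difference of medians was -0.317 (exact permutation p = 0.107). With TMM factors (explained below), likewise chosen after the data were seen, it was -0.257 (exact permutation p = 0.143).

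Most reads of the cluster came from miR-191-5p, which supplied 12533 of the 13920 reads of the 4 members, or 90.0%. Its share of the cluster lay between 83.6% and 91.1% in every library. In all 8 libraries miR-191-5p had the most reads, then miR-425-5p, then miR-191-3p, with miR-425-3p last (in uterine replicate 12 both 3p strands were at 0). By mean level over all libraries miR-191-5p ranked 27 among the 579 names, miR-425-5p 71, miR-191-3p 130 and miR-425-3p 213. These are orders of reads, since ligation and amplification can differ between sequences and were not corrected for.

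miR-191-5p, the strand best known as a reference, was at 1346, 2830 and 4668 CPM in uterine replicates 12, 3 and 4, against 7603, 4685, 5271, 4497 and 7999 CPM in oviductal replicates 1 to 5. Uterine replicates 12 and 3 lay under all oviductal libraries, while uterine replicate 4 lay between oviductal replicates 4 and 2, so the groups overlapped. The 3 uterine libraries averaged 2948 ± 1664 CPM (SD) and the 5 oviductal libraries 6011 ± 1664 CPM (SD). The edgeR log2 fold change, uterine over oviductal, was -0.76 ± 0.48 (SE), with a 95% interval of -1.77 to 0.26 and an adjusted p of 0.505. The difference did not pass the threshold of 0.05, which 3 of all 178 tested miRNAs did (1.69%). The interval reaches from a level well under that of oviductal vesicles to one slightly over it.

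The uterine pools were spread widely in miR-191-5p. Their exact 95% intervals, which cover counting error only and not the variation between pools, were 1201 to 1504 CPM in replicate 12, 2682 to 2984 CPM in replicate 3 and 4424 to 4923 CPM in replicate 4. In the oviductal group replicates 1 and 5 were high, with intervals of 7349 to 7864 and 7769 to 8234 CPM. The remaining oviductal replicates lay lower, with intervals between 4091 CPM at the low end and 6005 CPM at the high end. Scaled by TMM, a factor per library that allows for a few dominant miRNAs, miR-191-5p was at 1793 to 4248 CPM in uterine and 3660 to 8283 CPM in oviductal libraries, and uterine replicate 12 alone remained under all oviductal ones. Leaving out uterine replicate 3 gave an edgeR log2 fold change of -1.17 (adjusted p 0.188), the furthest from 0 of the alternatives. It was -0.56 without uterine replicate 12 (edgeR adjusted p 0.821) and -0.57 without oviductal replicate 1 (edgeR adjusted p 0.717).

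**Figure D1:**
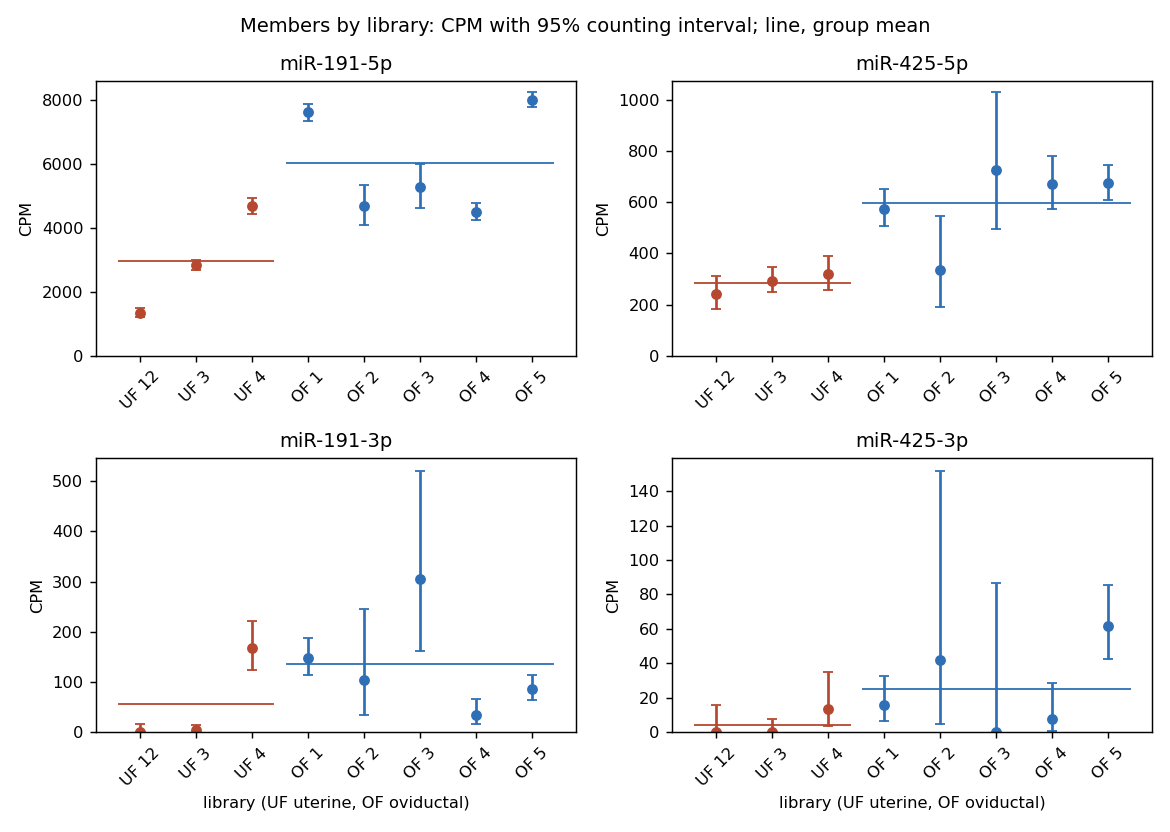
CPM (vertical axis, linear) of the 4 members in each library (horizontal axis; UF, uterine; OF, oviductal), with exact 95% counting intervals and group means as lines. For miR-425-5p every uterine point lies under every oviductal one, by a small margin to oviductal replicate 2, and for the 3p strands the uterine reads lie almost wholly in replicate 4.

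miR-425-5p was at 241, 294 and 319 CPM in uterine replicates 12, 3 and 4, against 575, 336, 726, 672 and 673 CPM in oviductal replicates 1 to 5. Every uterine library was under every oviductal one, but the gap was narrow at oviductal replicate 2. That library had 16 reads of miR-425-5p, with an interval of 192 to 546 CPM that spans all uterine values. CPM was lower in every uterine library than in every oviductal library for 18 of the 178 tested miRNAs (10.1%). The 3 uterine libraries averaged 285 ± 40.0 CPM (SD) and the 5 oviductal libraries 596 ± 155 CPM (SD).

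In edgeR miR-425-5p had a log2 fold change of -0.69 ± 0.65 (SE), with a 95% interval of -2.04 to 0.67 and an adjusted p of 0.715. After TMM scaling its groups overlapped, at 263 to 441 CPM in uterine and 263 to 684 CPM in oviductal libraries, and on that scale 10 of the 178 miRNAs (5.62%) were lower in every uterine than in every oviductal library. Leaving out uterine replicate 3 gave a log2 fold change of -1.14 (edgeR adjusted p 0.409), and leaving out uterine replicate 4 gave -0.47 (edgeR adjusted p 0.733). When only library totals were used for scaling, the log2 fold changes were -1.03 for miR-191-5p and -1.07 for miR-425-5p, and the median of all tested miRNAs moved to -0.31, against -0.02 with TMM.

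The 5p strands of the pair can be compared within a library, where the scaling between libraries cancels. For each read of miR-425-5p there were 5.59, 9.63 and 14.6 reads of miR-191-5p in uterine replicates 12, 3 and 4, against 13.2, 13.9, 7.26, 6.70 and 11.9 in oviductal replicates 1 to 5. The uterine values spanned the oviductal ones at both ends. The mean was 9.95 ± 4.53 in uterine (SD, n = 3) and 10.6 ± 3.39 in oviductal vesicles (SD, n = 5). On the log2 scale, with 0.5 added to each count, the group means differed by -0.13 (exact two-sided permutation p = 0.750). The sign turned to 0.24 without uterine replicate 12.

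The 3p strands, the minor products of both hairpins, were rare. miR-191-3p had 0, 2 and 49 reads in uterine replicates 12, 3 and 4, against 65, 5, 13, 9 and 49 reads in oviductal replicates 1 to 5. As CPM these were 0, 4.17 and 168 in uterine and 147, 105, 305, 35.4 and 86.1 in oviductal libraries. Uterine replicate 4 was thus higher than 4 of the 5 oviductal libraries, while uterine replicates 12 and 3 were lower than all of them. The exact upper limit of the 0 in uterine replicate 12 is 15.9 CPM, where a floor of 3 reads stands for 12.9 CPM. The edgeR log2 fold change was -1.24 ± 1.39 (SE, 95% interval -4.16 to 1.69, adjusted p 0.798), and without uterine replicate 4 it was -4.83 (adjusted p 0.152).

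miR-425-3p did not pass the filter and was not tested. It had 4 reads in uterine replicate 4 and 0 in uterine replicates 12 and 3, against 7, 2, 0, 2 and 35 reads in oviductal replicates 1 to 5. Of its 50 reads, 35 thus lay in oviductal replicate 5, the deepest library. In most other libraries it was near or under the floor of 3 reads, so no difference between the groups is stated for it.

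Strand choice is measured by the 3p share, the 3p reads of a hairpin over the reads of both its arms. For miR-191 this share was 1.51% over all libraries, 192 of 12725 reads, with an exact 95% interval of 1.30% to 1.74%. That interval covers counting error only and not the spread between libraries, whose own shares all lay outside it. By library the spread was wide. The share was 0%, 0.147% and 3.48% in uterine replicates 12, 3 and 4, against 1.90%, 2.19%, 5.46%, 0.780% and 1.06% in oviductal replicates 1 to 5. The uterine libraries lay on both sides of most oviductal values. In uterine replicate 3, with 1360 reads of the hairpin, the interval was 0.0178% to 0.530%, and in uterine replicate 4, with 1409 reads, it was 2.58% to 4.57%. The intervals of these uterine libraries did not overlap. In uterine replicate 12 the count of 0 among 313 reads has an exact upper limit of 1.17%. Summed over each group, the 3p share was 1.65% of uterine and 1.46% of oviductal reads of the hairpin. The intervals, again for counting error only, were 1.23% to 2.17% and 1.23% to 1.72%.

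For miR-425 the 3p share was 4.18% over all libraries, 50 of 1195 reads. Its interval of 3.12% to 5.48% again covers counting error only and not the spread between libraries. Without oviductal replicate 5, which held 35 of the 3p reads, the share was 1.93%. It was 0%, 0% and 4.12% in uterine replicates 12, 3 and 4, against 2.68%, 11.1%, 0%, 1.16% and 8.37% in oviductal replicates 1 to 5. Uterine replicate 4 was the only uterine library with 3p reads of miR-425. The 0 of 56 and of 141 reads in uterine replicates 12 and 3 have exact upper limits of 6.38% and 2.58%. Summed over each group, the 3p share was 1.36% of uterine and 5.11% of oviductal reads of this hairpin. In the oviductal group replicate 5, at 8.37% with an interval of 5.90% to 11.5%, lay over replicate 1, whose interval was 1.08% to 5.45%.

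**Figure D2:**
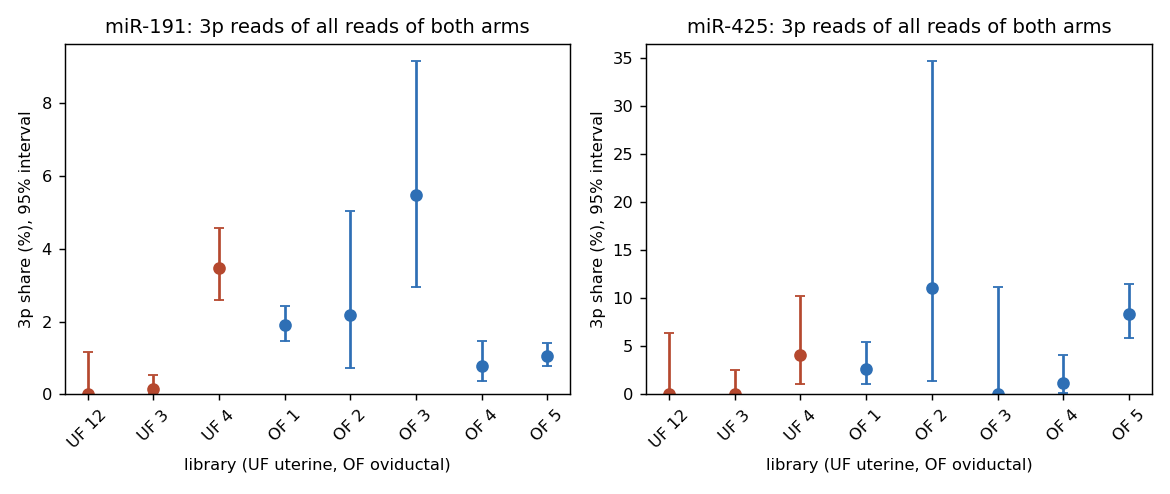
Share of 3p reads among the reads of both arms (vertical axis, percent), by library (horizontal axis; UF, uterine; OF, oviductal), for miR-191 and miR-425, with exact 95% intervals. Uterine replicate 4 stands at 3.48% and 4.12%, and uterine replicates 12 and 3 at 0.147% or less.

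As a log2 ratio of 5p to 3p with 0.5 added to each count, miR-191 was at 7.72 ± 2.55 in uterine (SD, n = 3) and 5.70 ± 1.11 in oviductal vesicles (SD, n = 5). The difference of 2.01 ± 1.22 (SE) had a 95% interval of -0.50 to 4.53 and a limma adjusted p of 0.723. For miR-425 the ratio was 6.45 ± 1.91 in uterine and 4.66 ± 1.52 in oviductal vesicles (SD, n = 3 and n = 5). The difference was 1.78 ± 1.21 (SE), with an interval of -0.71 to 4.27 and the same limma adjusted p of 0.723. Neither passed, and by limma none of the 82 precursors tested did (0%), with 6 (7.32%) at an unadjusted p under 0.05. By exact two-sided permutation p was 0.179 for each hairpin. Without uterine replicate 4 the differences were 3.48 for miR-191 and 2.82 for miR-425 (limma adjusted p 0.158 and 0.327). Without uterine replicate 3 they were 1.33 and 0.94, and without uterine replicate 12 they were 1.23 and 1.60 (limma adjusted p 0.921 for all of these). For miR-191 the mean log ratio was higher in the uterine group while the summed 3p share was not lower there. Uterine replicate 4 held 49 of the 51 uterine 3p reads of miR-191. The differences of ratios with 0 reads depend on the added 0.5 and are no bounds.

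Both miR-191-5p and miR-425-5p have been used as reference miRNAs for body fluids. They were set beside 22 names of other miRNAs in such use. Of these 17 were in the table and 16 were tested. None of the 16 passed edgeR's threshold, against 3 of all 178 tested (1.69%), and 2 of the 16 had an unadjusted p under 0.05, against 28 of the 178 (15.7%). Of the 16, 6 had positive and 10 negative log2 fold changes with a median of -0.03, against 87 positive and 91 negative of all tested with a median of -0.02. The most abundant were let-7i-5p at 0.15 ± 0.36, miR-26a-5p at -0.03 ± 0.39, let-7a-5p at -0.33 ± 0.41 and let-7g-5p at 0.40 ± 0.46 (log2 fold change ± SE). The let-7 names come from a family of near-identical sequences that may share reads. Lower values than both 5p strands of the cluster were seen only for miR-103a-3p at -1.73, let-7d-5p at -1.26 and miR-16b-5p at -1.22. All other tested names of the list had higher values than both strands, up to 1.09 for miR-186-5p. No test of the strands against the list was made.

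**Figure D3:**
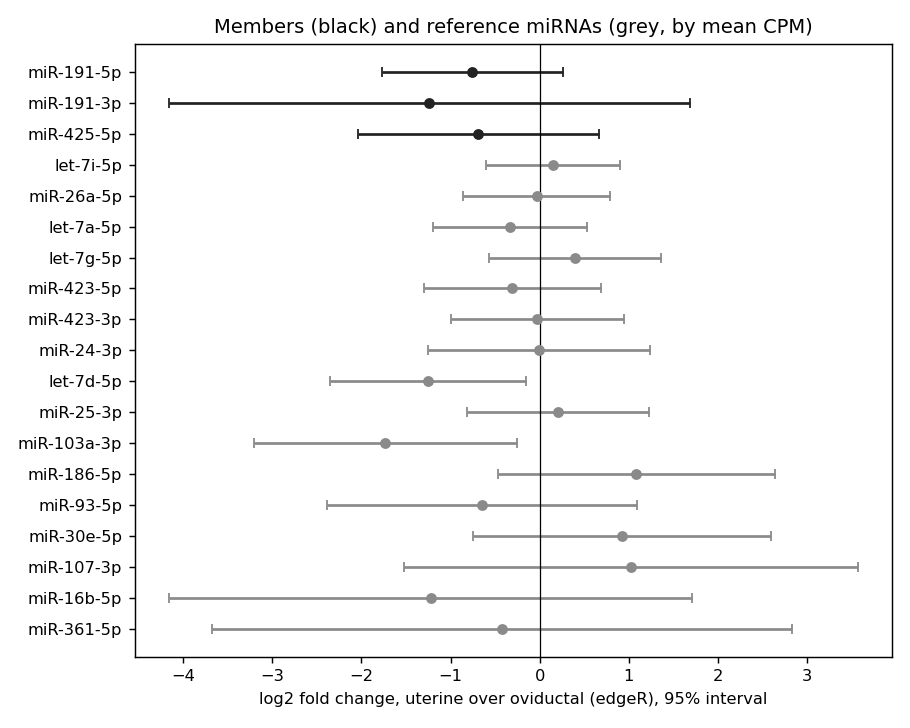
edgeR log2 fold change, uterine over oviductal (horizontal axis), with 95% intervals for the 3 tested members (black) and the 16 tested reference miRNAs (grey, by mean CPM). The intervals of the members all span 0.

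The coefficient of variation of TMM-scaled CPM over the 8 libraries describes how even a miRNA was. It was 36.5% for miR-425-5p and 43.9% for miR-191-5p, which stood 13 and 32 in order from the most even of the 178. It was 88.8% for miR-191-3p, which stood 120. Among the reference miRNAs let-7i-5p was the most even of all tested, at 18.4%, followed in that list by miR-25-3p at 28.6%, miR-26a-5p at 29.0%, let-7a-5p at 31.3% and miR-423-3p at 31.9%. The median was 50.2% over the 16 reference miRNAs and 73.9% over all tested. Low counts raise this measure, so miRNAs of different abundance are not compared on equal terms by it.

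The profile of miR-191-5p over the 8 libraries, on the scale of log2(CPM + 1), was most like that of miR-181a-5p (Pearson's r = 0.946), then miR-99a-5p (0.942), let-7d-5p (0.928), miR-30c-5p (0.919) and miR-218-5p (0.886). The nearest of them, miR-181a-5p, was at 129, 450 and 1105 CPM in uterine replicates 12, 3 and 4 and at 630 to 1312 CPM in oviductal libraries. It shared with miR-191-5p the lowest value in uterine replicate 12 and the highest uterine value in replicate 4. The cluster partner miR-425-5p came 31 among 177 miRNAs, with r = 0.762. These are descriptions without a test. The points share their library totals, and uterine replicate 12 was low for each of these miRNAs.

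For miR-425-5p the most similar profiles were those of miR-9-3p (r = 0.924), miR-135a-5p (0.866), miR-744-5p (0.838), miR-98-5p (0.803) and let-7d-5p (0.784), and miR-191-5p came 8 among 177. The first 2 of these were at 0 in some libraries, miR-9-3p in uterine replicates 12 and 3 and in oviductal replicate 2. Only let-7d-5p was among the nearest 5 of both strands. Its mean was 1439 ± 1068 CPM over the 3 uterine and 4067 ± 540 CPM over the 5 oviductal libraries (SD), and its log2 fold change of -1.26 did not pass (edgeR adjusted p 0.188).

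**Figure D4:**
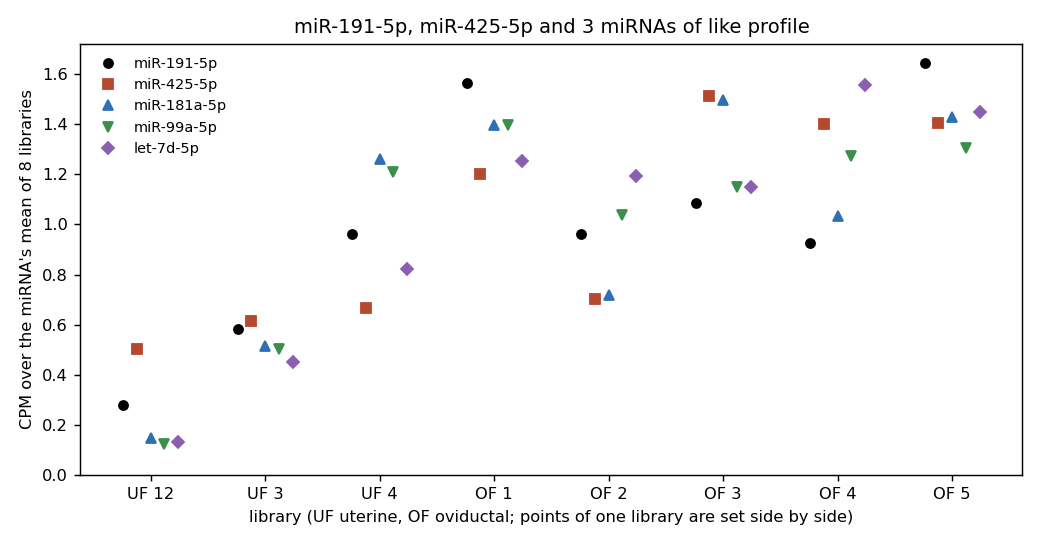
CPM of miR-191-5p, miR-425-5p and 3 miRNAs of like profile, each divided by its mean over the 8 libraries (vertical axis), by library (horizontal axis; UF, uterine; OF, oviductal). All 5 are lowest in uterine replicate 12, and miR-425-5p differs least among the uterine libraries, at 241 to 319 CPM.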

How the data were processed

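The deposited table holds the authors' read counts per mature miRNA and precursor, with the authors' RPM beside them. Each deposited RPM equalled the count over its column sum, within 0.005. Build OryCun2.0 and FastQC are named per the submitters' processing notes, while no aligner or counter is named there. The 615 rows were reduced to 579 names by keeping, per name, the row of highest total, and CPM were computed over these. The groups were compared in edgeR 4.0.16 (robust quasi-likelihood test, TMM, filterByExpr, Benjamini-Hochberg, threshold 0.05) under R 4.3.3. Arm ratios were tested with limma 3.58.1 where both arms together had 10 reads or more per library, and single values by exact permutation. DESeq2 1.42.0, limma-voom, other scalings and filters, blocks and left-out libraries were alternatives. Intervals (Clopper-Pearson, 95%) and floors of 3 reads cover counting error only, as reads are not independent molecules. The edgeR and limma procedures were tested on simulated data. The labels do not say that library numbers pair animals.

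The members, lists and tests were chosen with earlier results of these data known. Named besides the members were the 5 miRNAs most like each 5p strand by Pearson's r, and of the reference list the 4 most abundant. The reference miRNAs miR-25-3p, miR-423-3p, miR-103a-3p, miR-16b-5p and miR-186-5p were named after their values were seen. Mature and hairpin sequences were not used here.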

Additional observations from a re-analysis of the deposited data

How the results depend on the processing

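The 3 tested members had negative log2 fold changes and missed the threshold in all 18 alternatives each. They ranged from -1.17 to -0.10 for miR-191-5p, -4.83 to -0.80 for miR-191-3p and -1.14 to -0.47 for miR-425-5p, with adjusted p of 0.188 to 0.998, 0.152 to 0.998 and 0.409 to 0.998. Both arm-ratio differences stayed positive and not past it in 14 alternatives each, at 1.23 to 3.48 for miR-191 and 0.22 to 2.82 for miR-425, where the lowest was with the block by title number, and the cluster share stayed negative in 13, at -0.441 to -0.257 percentage points with exact permutation p of 0.0571 to 0.190. With 1 library left out of either group, no permutation p can pass 0.05, so those values say nothing about stability. The difference in the ratio of miR-191-5p to miR-425-5p ranged from -0.46 to 0.24 without single libraries, positive only without uterine replicate 12. The count of 3 called miRNAs was 1 with library totals, 6 with upper-quartile factors, 13 with no filter, 11 by DESeq2, 1 by limma-voom and 7 with rows summed. Leaving out single libraries gave 1 to 27: 1 for oviductal replicate 2, 1 for uterine replicate 12, 9 for uterine replicate 4 and 27 for uterine replicate 3. The count was 0 without both shallow libraries (edgeR, 20 at an unadjusted p under 0.05). With a replicate block by title number or by library-name number edgeR called 0 (8 and 11 at an unadjusted p under 0.05). With the block by title number miR-191-5p was at -0.10. Only the numbers 3 and 4 occur in both groups by title, so uterine replicate 12 and oviductal replicates 1, 2 and 5 do not inform that difference. The block by library-name number, which adds uterine replicate 12 and oviductal replicate 1 to the comparison, gave -0.77. The deviations of same-numbered libraries from their group means had r of -0.12 and -0.11 over 178 miRNAs for the numbers 3 and 4. For uterine replicate 12 and oviductal replicate 1, which share the library-name number 1, r was -0.13. With so few libraries behind each group mean, these values cannot show whether the pools share animals. The cause of the changes in the count of called miRNAs was not tested. A floor of 3 reads stood for up to 70.3 CPM, which limits what can be said of the 3p strands in the shallow libraries.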
